A study of Mus musculus with 7 samples.

Results

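The genes described here are 10 genes of heme breakdown and iron storage in C2C12 myotubes: Hmox1, Hmox2, Blvra, Blvrb, Fth1, Ftl1, Tfrc, Slc40a1, Slc11a2 and Bach1. They were chosen with earlier results of these data known and matched by exact symbol. All 10 were found among the 26607 genes listed in every library. C2C12 cells are mouse myoblasts, kept as a line, that join into multinucleated myotubes in low serum. The RNA-seq data cover 3 control libraries of myotubes without treatment, numbered 1, 3 and 4, and 4 libraries of myotubes given electrical pulse stimulation (EPS), numbered 1 to 4. EPS passes repeated pulses through the medium so that myotubes contract without a nerve. It was applied 3 days after the start of differentiation at 1 Hz for 24 h, and the cells then rested for 1 h. All libraries come from this 1 line, and the sources do not say that the libraries of a group came from separate experiments, so a p-value measures only the spread between these libraries.

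The values are CPM, the reads of a gene scaled to a common library total. Totals were between 16616917 and 22120641 reads in the control libraries and between 18830229 and 21892568 in the EPS libraries. The values of the 10 genes rested on 102 to 80412 reads in a library, far above the 3 reads taken as the smallest number that can be told from 0. This floor covers counting error only. Control replicate 4 stood apart. Only 359 of its genes had 1 to 5 reads, where each other library had 2670 to 3181 such genes. Its short transcripts were also high relative to its long ones, but several other libraries had a length trend as strong, described further on. Where a result on the 10 genes changes its call, turns or moves by over 1.5 times without control replicate 4, it is given with and without it.

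Heme is cut open by a heme oxygenase, which releases carbon monoxide, ferrous iron and biliverdin. A biliverdin reductase then turns biliverdin into bilirubin. Hmox1 encodes the inducible heme oxygenase and Hmox2 the constitutive one, and BACH1 is a repressor that leaves the Hmox1 gene when it binds heme. The iron that is set free can be stored in ferritin, a hollow shell built of heavy (Fth1) and light (Ftl1) chains, or leave the cell through ferroportin (Slc40a1), the only known cellular iron exporter. Iron enters on transferrin through the transferrin receptor (Tfrc) and crosses the endosomal membrane through DMT1 (Slc11a2). Several of these mRNAs carry iron-responsive elements, hairpins that iron regulatory proteins grip when iron is scarce. A hairpin near the start of the mRNA then blocks translation, whereas hairpins in the 3′ UTR then protect the mRNA from decay.

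The hairpins are shown because the pattern below marks Fth1, Ftl1 and Slc40a1 at the 5′ end and Tfrc at the 3′ end. It leaves Slc11a2, also an iron gene of this list, unmarked. The pattern searched was an unpaired C, a stem of 5 bases, the loop CAGTGN and the 5 bases that pair with the stem, with G–T pairs allowed, on the sense strand of the reference transcripts of GENCODE M21 (build GRCm38). It matched 7 sites in 4 of the 10 genes, and 251 of 20675 protein-coding genes, or 1.21%, hold it somewhere. In 20 genes it lay in the 5′ UTR and in 103 in the 3′ UTR. The capitals mark the 6 bases of the loop, and each site is 29 bases, 5′ to 3′ on the transcript. The first 3 lie in the 5′ UTR, in exon 1 of Fth1 at chr19:9982732-9982760 (plus strand), exon 1 of Ftl1 at chr7:45459779-45459807 (minus strand) and exon 1 of Slc40a1 at chr1:45925465-45925493 (minus strand). The other 4 lie in the 3′ UTR of Tfrc, in exon 19, at chr16:32631219-32631247, chr16:32631598-32631626, chr16:32631663-32631691 and chr16:32631710-32631738 (plus strand).
Fth1: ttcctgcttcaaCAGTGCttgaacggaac
Ftl1: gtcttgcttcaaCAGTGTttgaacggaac
Slc40a1: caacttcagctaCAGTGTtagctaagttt
Tfrc site 1: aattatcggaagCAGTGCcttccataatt
Tfrc site 2: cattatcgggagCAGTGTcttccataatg
Tfrc site 3: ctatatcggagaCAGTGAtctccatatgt
Tfrc site 4: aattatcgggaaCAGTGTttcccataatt
The Fth1 and Ftl1 sites share 26 of their 29 bases. The Slc40a1 site shares 13 of 29 with each of them, and the Tfrc sites share 18 to 25 of 29 with each other. No transcript of Slc11a2 held this form of the pattern, which says only that these letters were not found in it. An element of another form would have been missed.

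The comparison asked how mRNA levels differed between myotubes harvested after EPS and the following rest and myotubes without EPS; contraction itself was not measured in these libraries. Hmox1, Blvrb, Fth1, Ftl1 and Slc40a1 were up-regulated by EPS, by 7.25-fold, 3.65-fold, 3.32-fold, 2.29-fold and 2.27-fold in mean CPM, and every EPS library lay above every control library for each of them. A gene was called up- or down-regulated when its change was over 2-fold with a two-sided limma P under 0.01, unadjusted, on log2(CPM + 1). By this rule 5 of the 10 genes were called higher and 0 lower; at an unadjusted P under 0.05 alone 1 was lower, Tfrc, as were 3.21% of genes tested, while 8.4% were higher at that level, and the edgeR and DESeq2 fits called the same 5 genes and 0 lower. The limma count was 4 without control replicate 4, 3 without control replicate 1 or EPS replicate 2 and 2 without control replicate 3. At an unadjusted P under 0.001 it was 1, Hmox1, and the lost calls given below for each gene leave this threshold out. Of the 19144 genes tested, 185 were called higher, or 0.966%, and 84 lower, or 0.439%. Among the 9256 genes with a mean of at least 10 CPM, as all 10 have, 1.22% were called higher. The EPS libraries lay above all control libraries in 5 of the 10 genes, against 7.76% of genes tested, and below them in 1, Tfrc, against 2.85%. Because the 10 genes were chosen with earlier results of these data known, these shares are background and no test of the group. Hmox2, Blvra, Slc11a2 and Bach1 overlapped between the groups. After Benjamini-Hochberg adjustment over all genes tested, only Hmox1 of the 10 stayed under 0.05 (limma), a level that 0.0992% of genes passed in the upward direction. The count of genes called higher moved with the scaling of the libraries, to 130 of 252 called genes after quantile normalization from 185 of 269. Among genes with a mean of at least 1 CPM the median log2 fold change was 0.10 on the deposited scale and -0.0048 after median-of-ratios scaling, so a value close to 0 on the deposited scale has no secure direction.

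**Figure D1:**
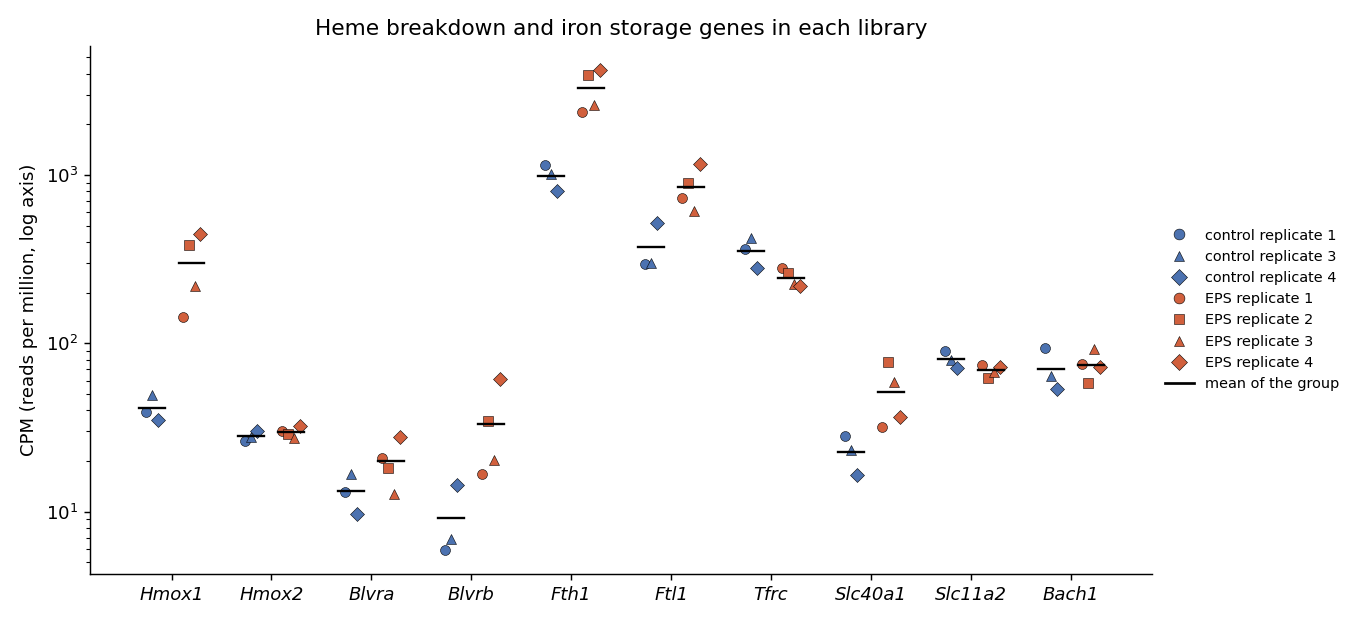
CPM of the 10 genes (log axis) in each of the 3 control and 4 EPS libraries, with a marker shape for each replicate number and a bar at the mean of the group. Hmox1, Blvrb, Fth1, Ftl1 and Slc40a1 are higher in every EPS library than in any control library, and Hmox2, Blvra, Slc11a2 and Bach1 overlap.

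Hmox1 (ENSMUSG00000005413.8) lies on GRCm38 chromosome 8 between 75093621 and 75100589. It stood at 39.1, 49.3 and 35.1 CPM in control replicates 1, 3 and 4. In EPS replicates 1 to 4 it stood at 144, 386, 218 and 447 CPM. The lowest EPS library was therefore well above the highest control library, and the EPS libraries differed among themselves by 3.11-fold. Its log2 fold change was 2.71 (SE 0.37, limma adjusted p = 0.0443), higher in 4 of 4 EPS libraries. The exact two-sided permutation test of its mean CPM gave p = 0.0571 although the groups do not overlap, since the test compares means of groups of unequal size. It was called under each of the 18 alternatives, with values from 2.47 to 3.01. Its adjusted p ranged from 1.0e-12 to 0.51 over them, and in limma it was between 0.091 and 0.12 on leaving out any single library other than EPS replicate 1, without which it was 0.011.

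Hmox2 (ENSMUSG00000004070.15), on chromosome 16 from 4726361 to 4766742, stood at 26.4, 27.7 and 30.3 CPM in the control libraries and at 30.3, 28.8, 27.6 and 32.2 CPM in the EPS libraries. These were among the tightest values of the 10 genes, spread over 1.17-fold within the EPS group. Its log2 fold change was 0.077 (SE 0.15, limma adjusted p = 0.87), and it was between -0.039 and -0.021 under quantile normalization, median-of-ratios scaling, transcript length correction and the tools that use TMM or size factors. Without control replicate 4 it was 0.13, and without any 1 library it was between 0.032 and 0.13. Hmox2 shares a stretch of at least 90% identity over 200 bases with Cdip1, which overlaps it on the opposite strand, and the use of strand in the authors' counting is not given in the sources used here.

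Of the biliverdin reductases, Blvrb passed the test and Blvra did not, and the difference between them was not tested. Blvrb (ENSMUSG00000040466.16), on chromosome 7 from 27447978 to 27466144, encodes the reductase that also acts on flavins. Its levels were 5.95, 6.92 and 14.5 CPM in the control libraries and 16.7, 34.6, 20.2 and 61.6 CPM in the EPS libraries. Control replicate 4 was well above the other control libraries and close to EPS replicate 1, and EPS replicate 4 was the highest. The log2 fold change was 1.67 (SE 0.46, limma adjusted p = 0.20), with adjusted p between 0.0041 and 0.51 over the alternatives. The call was lost without EPS replicate 2 (1.59), EPS replicate 4 (1.32), control replicate 1 (1.45) or control replicate 3 (1.54). Without control replicate 4 it was 2.03. The exact permutation test of mean CPM gave p = 0.114.
Blvra (ENSMUSG00000001999.15), on chromosome 2 from 127070665 to 127097084, encodes the main reductase of heme-derived biliverdin in adult tissues. It stood at 13.1, 16.8 and 9.67 CPM in the control libraries and at 20.9, 18.2, 12.8 and 27.8 CPM in the EPS libraries, and EPS replicate 3 lay below 2 of the control libraries. Its log2 fold change was 0.54 (SE 0.29, limma adjusted p = 0.52), and it was 0.35 without control replicate 4 and between 0.35 and 0.72 without any 1 library.

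Both ferritin chains were up-regulated. Fth1 (ENSMUSG00000024661.7), on chromosome 19 from 9980598 to 9985098, encodes the chain with the ferroxidase site that oxidizes iron for storage. It stood at 1147, 1019 and 800.5 CPM in the control libraries and at 2383, 3917, 2616 and 4216 CPM in the EPS libraries. Each EPS library was above each control library by a wide margin. By CPM, Fth1 ranked between 70 and 127 among all genes in the control libraries and between 4 and 21 in the EPS libraries. Its log2 fold change was 1.70 (SE 0.38, limma adjusted p = 0.12), and the difference in mean CPM gave p = 0.0286 in an exact two-sided permutation test, the smallest that the 35 splits of 7 libraries allow. The adjusted p was between 7.0e-08, in DESeq2, and 0.55 over the alternatives, and the call was kept in 17 of 18 of them.

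Ftl1 (ENSMUSG00000050708.16), on chromosome 7 from 45457944 to 45459884, encodes the chain that helps the iron core form. It stood at 295, 299 and 522 CPM in the control libraries and at 731, 898, 615 and 1169 CPM in the EPS libraries. Control replicate 4 was again the control library nearest to the EPS group. The log2 fold change was 1.21 (SE 0.30, limma adjusted p = 0.17), with adjusted p between 0.010 and 0.51 over the alternatives. The call was lost without control replicate 1 (1.07) or control replicate 3 (1.08) and with a correction for transcript length (0.98), and the value was 1.48 without control replicate 4. The exact permutation test of mean CPM gave p = 0.0571. Together Fth1 and Ftl1 took 0.136% ± 0.00704 (SD, n = 3) of all reads in the control group and 0.414% ± 0.114 (SD, n = 4) in the EPS group. Sequences at least 90% identical over 200 bases or more occur in 9 other annotated genes for Ftl1 and 1 for Fth1, none of them listed in the files, and how reads that match several copies were counted is not given in the sources used here. The 8 listed ferritin relatives, among 14 looked for, were at 0 in every library.

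Of the iron transporters, the exporter passed the test and the uptake genes did not, and the difference between them was not tested. Slc40a1 (ENSMUSG00000025993.10), on chromosome 1 from 45908068 to 45926523, stood at 28.0, 23.1 and 16.6 CPM in the control libraries and at 31.9, 77.7, 58.7 and 36.4 CPM in the EPS libraries. EPS replicates 1 and 4 were just above the highest control library, and EPS replicates 2 and 3 well above it. The log2 fold change was 1.09 (SE 0.32, limma adjusted p = 0.23), close to the 2-fold threshold, with adjusted p between 0.035 and 0.57 over the alternatives. Leaving out EPS replicate 2 (0.86), EPS replicate 3 (0.99), control replicate 3 (1.12) or control replicate 4 (0.89) ended the call, as did quantile normalization (0.97) and median-of-ratios scaling (0.98). The exact permutation p of its mean CPM was 0.0857.

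Tfrc (ENSMUSG00000022797.16), on chromosome 16 from 32608920 to 32632794, stood at 363, 420.4 and 279.6 CPM in the control libraries and at 279.2, 264, 224 and 218 CPM in the EPS libraries. The groups all but touch, since control replicate 4 and EPS replicate 1 differ by less than 1 CPM. The log2 fold change was -0.51 (SE 0.19, limma adjusted p = 0.34), so that Tfrc was not called, and it was -0.67 without control replicate 4 and between -0.67 and -0.38 over all alternatives. The exact permutation test of its mean CPM gave p = 0.0286.
Slc11a2 (ENSMUSG00000023030.16), on chromosome 15 from 100387898 to 100425072, stood at 89.8, 79.7 and 71.4 CPM in the control libraries and at 74.6, 62.4, 67.2 and 72.2 CPM in the EPS libraries. The groups overlapped, and the log2 fold change was -0.21 (SE 0.14, limma adjusted p = 0.62). It lay between -0.33 and -0.13 over all alternatives, with -0.13 reached without control replicate 1. Its transcripts overlap Gm5475 on the opposite strand.

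Bach1 (ENSMUSG00000025612.5), on chromosome 16 from 87698945 to 87733346, showed no difference in mRNA level that exceeded the spread of the libraries. It stood at 93.3, 64.0 and 53.8 CPM in the control libraries and at 75.9, 57.8, 92.9 and 72.8 CPM in the EPS libraries. The log2 fold change was 0.11 (SE 0.22, limma adjusted p = 0.87), and it was -0.066 without control replicate 4, -0.0030 without EPS replicate 3, -0.0053 after median-of-ratios scaling and between -0.015 and -0.0019 in DESeq2 and the edgeR fits with TMM. BACH1 acts as a protein whose activity depends on heme, which mRNA levels do not measure.

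**Figure D2:**
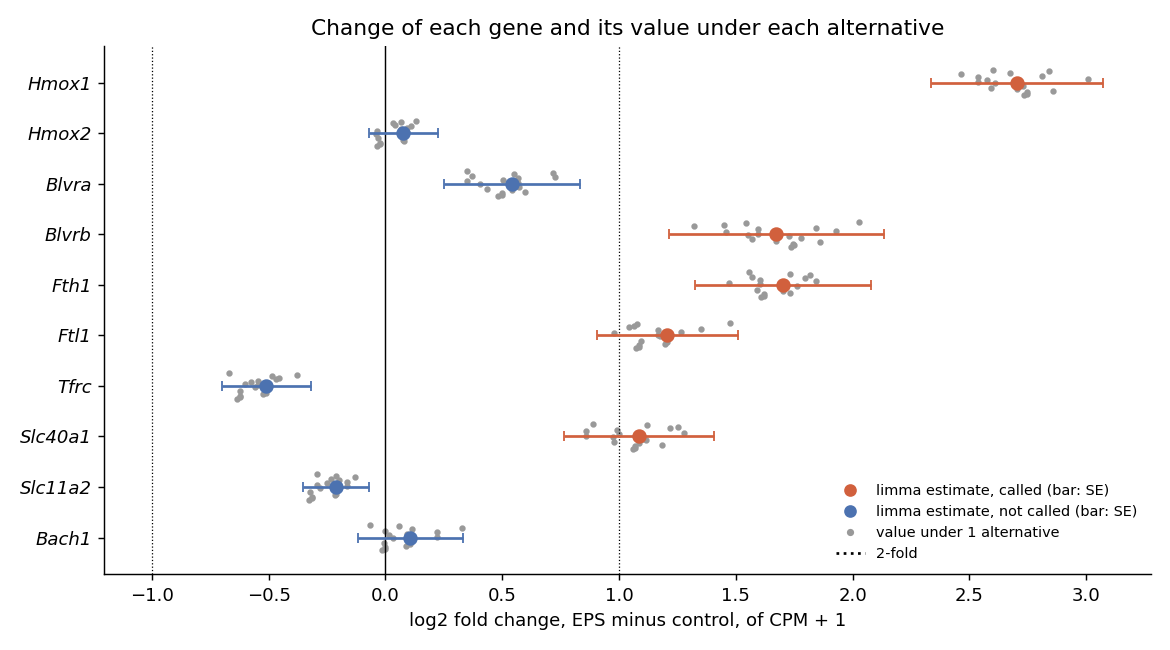
Log2 fold change of CPM + 1, EPS minus control, of each gene. Large points are the limma estimates with their standard errors, orange where called and blue where not; small grey points are the values under each of 18 alternatives and dotted lines mark 2-fold. Hmox1 stays above 2.4 throughout, whereas the grey points of Slc40a1 and Ftl1 reach the 2-fold line and those of Hmox2 and Bach1 lie on both sides of 0.

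Levels were compared between genes per kilobase of transcript. Fth1 was the most abundant of the 10 in both groups, at 1064 CPM per kb in the control group and 3534 in the EPS group. It was followed by Ftl1, at 384 and 881 CPM per kb. In the control group Tfrc came next at 72.4 ± 14.5 CPM per kb (SD, n = 3), above Slc11a2 at 26.6 ± 3.04 and Hmox1 at 26.2 ± 4.68, which did not differ beyond their spread. In the EPS group Hmox1 came next at 190.4 ± 90.1 CPM per kb (SD, n = 4), above Tfrc at 50.4 ± 6.10, and its lowest library was above the highest Tfrc library. Blvrb moved from 8.86 ± 4.54 to 32.4 ± 19.9 CPM per kb, and Slc40a1 from 6.70 ± 1.70 to 15.2 ± 6.29.

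Ratios within a library do not depend on how libraries are scaled to each other, and they were not tested. The level of Hmox1 per kilobase was 1.63, 1.96 and 1.28 times that of Hmox2 in the control libraries and 5.23, 14.7, 8.72 and 15.3 times in the EPS libraries. Hmox1 was thus above Hmox2 in every library, by less than 2-fold in each control library and by at least 5.23 times in each EPS library. The ratio of Fth1 to Ftl1 was 4.05, 3.55 and 1.60 in the control libraries and 3.40, 4.55, 4.43 and 3.76 in the EPS libraries. It overlapped between the groups, and control replicate 4 alone lay outside the range of 3.40 to 4.55. The log2 difference of this ratio between the groups was 0.50 with it and 0.080 without it. The ratio of Tfrc to Fth1 was 0.068 ± 0.0093 (SD, n = 3) in the control group and 0.015 ± 0.0053 (SD, n = 4) in the EPS group, without overlap. That of Slc40a1 to Tfrc was 0.093 ± 0.017 (SD, n = 3) in the control group and 0.30 ± 0.12 (SD, n = 4) in the EPS group, also without overlap. The separation of both ratios follows from the single genes and adds nothing to them. In every EPS library Fth1 and Slc40a1 were above, and Tfrc below, every control library.

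**Figure D3:**
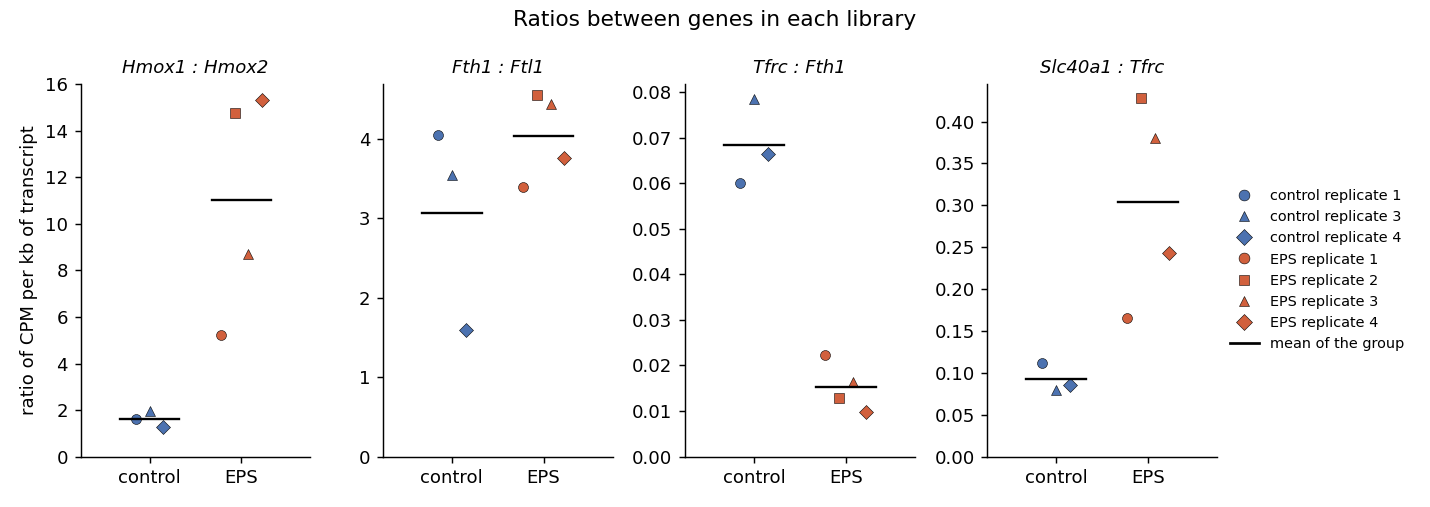
Ratios of CPM per kilobase of transcript between pairs of genes in each control and EPS library, with a marker shape for each replicate number and a bar at the mean of the group. The ratios of Hmox1 to Hmox2, Tfrc to Fth1 and Slc40a1 to Tfrc separate the groups, and the ratio of Fth1 to Ftl1 does not, with control replicate 4 at 1.60. For Tfrc to Fth1 and Slc40a1 to Tfrc the separation follows from the levels of the single genes.

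The EPS libraries did not respond alike. Hmox1, Blvrb and Fth1 had the same order, with replicate 4 highest and then replicates 2, 3 and 1. Ftl1 was also highest in replicates 4 and 2, while Slc40a1 was highest in replicates 2 and 3. Transcript length moved with some of these differences. Transcripts under 1 kb were above the other libraries of the group by a median log2 difference of 0.47 in EPS replicate 2 and 0.13 in EPS replicate 4, and below them by -0.51 in EPS replicate 3. In control replicate 4 they were at 0.34 and those over 4 kb at -0.29, and in control replicate 1 the trend was about as strong in the other direction, at -0.40 and 0.26. Fth1, Ftl1 and Blvrb have short reference transcripts, of 929, 968 and 1028 bases, while those of Tfrc and Bach1 have 4890 and 5867. Between EPS and control, the median log2 fold change was 0.24 for the 778 genes with transcripts under 1 kb and 0.09 for the 3787 with transcripts over 4 kb, and without control replicate 4 these medians were 0.42 and 0.0026. With each library corrected for transcript length, a fit added after the data were seen, Hmox1 was at 2.57, Fth1 at 1.47, Blvrb at 1.46, Ftl1 at 0.98, Slc40a1 at 1.00 and Tfrc at -0.60.

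In the lists of other heme and iron genes, limma called Slc48a1, Cat and Hscb, all higher; of all genes tested, 0.966% were called higher. The counts at an unadjusted P under 0.05 stand against 8.4% higher and 3.21% lower of all genes tested. Of 12 genes of heme transport and binding, 1 was called, Slc48a1, which encodes the transporter that carries heme out of endosomes and lysosomes into the cytosol. It stood at 75.8, 74.5 and 111 CPM in the control libraries and at 270, 316, 284 and 525 CPM in the EPS libraries, with a log2 fold change of 1.96 (SE 0.26, limma adjusted p = 0.0443). Hebp2 and Abcg2, a heme-binding protein and a heme exporter, had values of 0.40 and 0.34 and were not called. In heme synthesis 0 of 15 genes were called in limma or in the edgeR and DESeq2 fits, 3 were higher at an unadjusted P under 0.05, and the median log2 fold change was 0.20. Closest was Abcb6, a transporter linked to porphyrins, at 58.8 ± 27.8 CPM (SD, n = 3) and 114 ± 25.9 CPM (SD, n = 4), with a log2 fold change of 1.03 and an unadjusted P of 0.010 in limma, just over the threshold before rounding. It was called without control replicate 4 (1.37) or EPS replicate 2 (1.15), and without the former the median of the list was 0.32. Abcb6 was lower without control replicate 3 (0.67) or EPS replicate 3 (0.90) and was not called in either fit. Cpox, coproporphyrinogen oxidase, was at 0.77 and Alas1, the rate-limiting enzyme of heme synthesis outside red cells, at 0.38.
Among hemoproteins and bile pigment enzymes, 1 of 15 tested genes was called by limma, Cat (catalase), at 62.7 ± 22.3 CPM (SD, n = 3) in the control group and 137 ± 44.4 CPM (SD, n = 4) with EPS with a log2 fold change of 1.12 (limma adjusted p = 0.20). Its call was lost without control replicate 1 (1.10), control replicate 4 (0.87), EPS replicate 2 (1.03) or EPS replicate 4 (0.95). Cyb5a (listed as Cyb5), a cytochrome, was at 0.92 and was called higher by edgeR's quasi-likelihood test without TMM only. Ccs, a copper chaperone, was at 0.72, and at 0.33 without control replicate 4, and was called by none of these tools.

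Of the 16 tested genes of iron uptake and intracellular transfer, 0 were called in limma or in the edgeR and DESeq2 fits and 2 were higher at an unadjusted P under 0.05, with a median log2 fold change of 0.068. The symbol Tf was not found in the files, which does not say that transferrin was not measured under another symbol. The smallest P-values belonged to the ferrireductases Steap3 (0.49) and Steap2 (0.35) and the iron chaperone Pcbp2 (0.45). Of 13 tested genes of iron export and its systemic control, 0 were called in limma and in edgeR's quasi-likelihood test, 2 were higher and 2 lower at an unadjusted P under 0.05, and Bmp6 was called lower by the edgeR exact test and DESeq2. Cp, the ferroxidase ceruloplasmin that works with ferroportin, was at 175 ± 25.7 CPM (SD, n = 3) and 311 ± 71.2 CPM (SD, n = 4), with a log2 fold change of 0.80, under the 2-fold threshold. EPS replicate 4, at 205.9 CPM, all but touched control replicate 1, at 204.5 CPM. The ferroxidase Hephl1 was at -0.68 and Bmp6, which drives hepcidin in the liver, at -0.67. Bmp6 had a mean of 1.28 CPM in the control group and 0.43 CPM in the EPS group, or 0.34 times. At such low levels the 1 added to each CPM shrinks the log2 value, so it cannot be set beside that of Hephl1. Of 10 genes of iron sensing 0 were called in limma or in the edgeR and DESeq2 fits and 1 was higher at an unadjusted P under 0.05, while Rc3h1, Fbxl5 and Zfp36 were at 0.39, 0.31 and 0.25, and at 0.22, 0.13 and 0.015 without control replicate 4.
In iron-sulfur cluster assembly 1 of 19 genes was called by limma, the co-chaperone Hscb, at 5.35 ± 0.737 CPM (SD, n = 3) and 12.1 ± 3.36 CPM (SD, n = 4) with a log2 fold change of 1.02 (limma adjusted p = 0.18). Its call was lost without EPS replicate 2 (0.86), EPS replicate 4 (1.01) or control replicate 1 (0.93). Lyrm4, a subunit of the cluster-building complex, was at -0.78 in limma and was called lower by the edgeR tests with TMM and DESeq2. This rests on control replicate 4, at 23.1 CPM against 5.25 and 6.62 in the other controls, and the limma value without it was -0.17. Without control replicate 4 the median of the list was 0.30, against 0.15 with it. Bola3 and Ciao1, which serve the same assembly, were at 0.50 and 0.35. Among 17 regulators of the BACH1 and NRF2 axis 0 were called in limma or in the edgeR and DESeq2 fits and 2 were higher at an unadjusted P under 0.05, with a median of 0.24, and 0.14 without control replicate 4. Sqstm1, a KEAP1-binding autophagy receptor, was at 0.66, Rbx1, a subunit of the ligase that acts on NRF2, at 0.51 and Mafg, a small MAF partner of BACH1 and NRF2, at 0.37. Over all tested genes the median was 0.041. Beyond the members, the hairpin pattern lay in the 5′ UTR of 16 tested genes, of which 0 were called in limma, edgeR or DESeq2 and 0 had an unadjusted P under 0.05 (median 0.018). It lay in the 3′ UTR of 95, of which 7 were higher and 4 lower at an unadjusted P under 0.05 and 1, Gja5, was called lower by limma (median 0.077). The edgeR tests with TMM and DESeq2 called Camk2n1 lower as well, at -0.80 in limma and -0.49 without control replicate 4. Without that library limma called 0 of the 95 and their median was 0.019. The call of Gja5 was also lost without control replicate 1 (-1.27), control replicate 3 (-1.26), EPS replicate 1 (-1.14) or EPS replicate 4 (-0.93), and the value was -1.15 without control replicate 4.

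**Figure D4:**
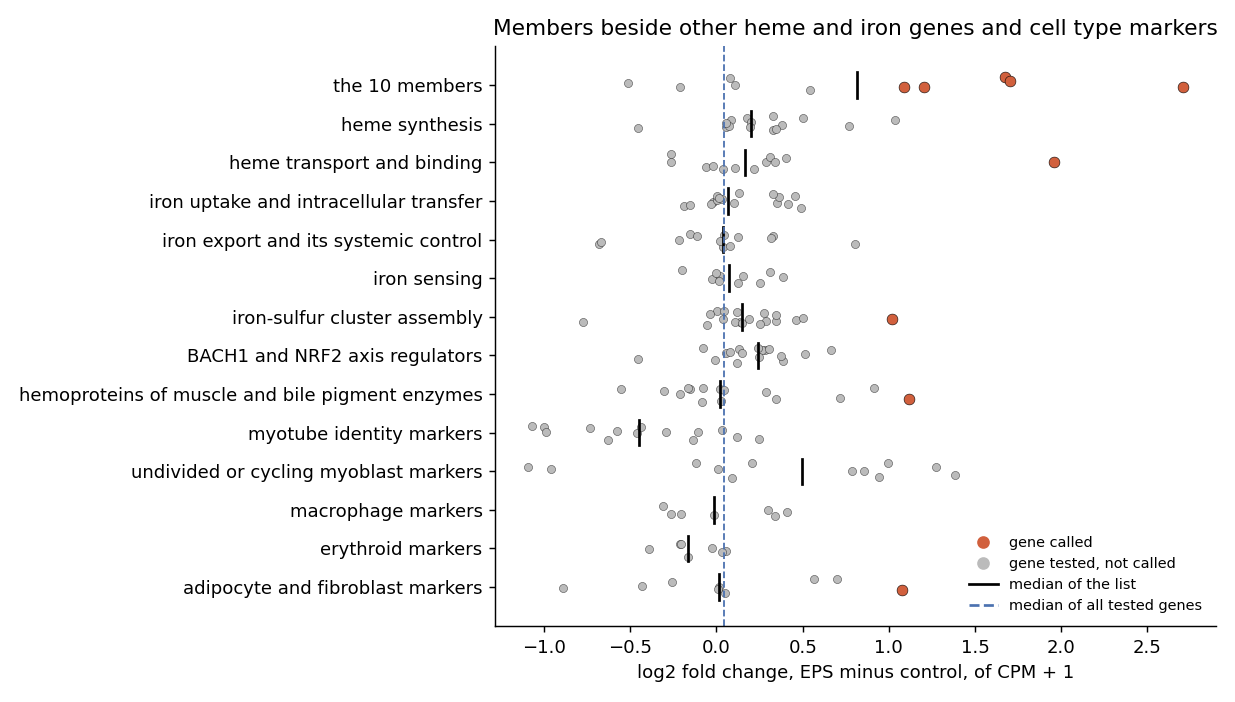
Log2 fold change of CPM + 1, EPS minus control, of the 10 genes and of the tested genes of 13 other lists. Each point is a gene, orange where called, with a bar at the median of its list and a dashed line at the median of all tested genes. Apart from the 10 genes, chosen with earlier results of these data known, no list has more than 1 gene called by limma.

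The cells carried the markers of myotubes, with Acta1 at 3209 ± 404 CPM (SD, n = 3) in the control group and 2971 ± 212 CPM (SD, n = 4) under EPS, and Myog at 944 ± 738 and 392 ± 154 CPM. The control mean of Myog rests on control replicate 4, at 1794 CPM against 473 and 565 in the other controls; without it the mean was 519 CPM and the log2 fold change -0.47, against -1.07 with it. In total, 14 myotube markers summed to 21838 to 24433 CPM in the control libraries and to 15814 to 23620 in the EPS libraries. The median log2 fold change of these markers was -0.45 and 0 of 14 were called in limma, where 3 were lower at an unadjusted P under 0.05; edgeR and DESeq2 called 2 or 3 lower, Myog and Actn2 among them, in fits with all 7 libraries. The smallest P-values belonged to Actn2 at -0.99, Atp2a1 at -0.73 and Mymx (listed as Gm7325) at -0.999. The 12 markers of cycling or undivided myoblasts had a median of 0.49 with 0 called in limma, where 5 were higher and 2 lower at an unadjusted P under 0.05; the edgeR tests with TMM and DESeq2 called 2 higher (Mki67 and Ccnb1) and 2 lower (Id1 and Id3), and edgeR without TMM called 4 higher, Cdk1 and Bub1 with the same pair, and 1 lower (Id1). The values in limma were Ccnb1 at 1.38, Mki67 at 1.27 and Id1 at -1.09 (-0.65 without control replicate 4), and the markers summed to 455 to 490 CPM in the control libraries and to 522 to 1288 CPM in the EPS libraries. Their part in the values of the heme and iron genes was not tested. In bulk RNA, fewer cells of a type and less RNA per cell cannot be told apart.
The macrophage markers, which matter because macrophages recycle heme iron, summed to 3.38 to 5.06 CPM in the control libraries and 3.75 to 5.52 CPM in the EPS libraries, with 3 of 10 at 0 in every library and 0 called in limma, edgeR or DESeq2 (1 higher at an unadjusted P under 0.05). Lyz2 was at or below 0.904 CPM, Csf1r at or below 0.690 CPM and Cd68 at or below 2.07 CPM in each library. Erythroid markers summed to 2.10 to 5.79 CPM in the control libraries and 2.10 to 3.17 CPM in the EPS libraries, and the globins Hbb-bs (listed as Beta-s) and Hba-a2, with Slc4a1, were above 0 in control replicate 4 alone, at 0.407, 0.542 and 1.27 CPM; 0 of 7 tested were called in limma or had an unadjusted P under 0.05, and the edgeR fits called Slc4a1 lower. Of 9 tested adipocyte and fibroblast markers 1 was called by limma, Ly6a, at 65.4 ± 19.0 CPM (SD, n = 3) in the control group and 143 ± 53.1 CPM (SD, n = 4) with EPS, and its call was lost without control replicate 1 (0.92), control replicate 4 (1.01), EPS replicate 2 (0.88) or EPS replicate 4 (0.98). Pdgfra was at 0.70, or 0.43 without control replicate 4, and Dcn at -0.89 on the log2 scale.

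The genes most like each called member in pattern were found from the root mean square difference of mean-centred log2(CPM + 1) over the 7 libraries, among 12255 other genes with a mean of at least 1 CPM. This is a description, with no test. Txnrd1, thioredoxin reductase, was nearest to Fth1 at 0.15, followed by Dfna5 at 0.18 and Akr1c14 at 0.19. Gstp1, a pi-class glutathione transferase, was nearest to Ftl1 at 0.098, followed by Gm3934 at 0.12 and Car8 at 0.15. Nearest to Hmox1 were Esd, an esterase of formaldehyde detoxification, at 0.25, Gstm1 at 0.27 and Gm3776 at 0.37. For Blvrb they were Slc16a11 at 0.23, Uchl1 at 0.28 and Tpsab1 at 0.31, and for Slc40a1 they were Tmem117 at 0.17, Acox2 at 0.21 and Anpep at 0.21. Of the other members, Fth1 was the nearest to Hmox1, in place 17 of 12255, and Ftl1 was the nearest to Blvrb, in place 11. For the remaining called members the nearest other member came much later, with Ftl1 in place 129 for Fth1, Blvrb in place 138 for Ftl1 and Fth1 in place 857 for Slc40a1.
The 250 bases before the start of the members were searched on both strands for TGACNNNGC and TGANTCA, forms of the sites shared by NRF2, BACH1 and small MAF proteins. RefSeq windows (GRCm38.p6) were given for 7 of the 10 genes, 12 windows in all, and not for Hmox1, Slc40a1 and Slc11a2. Only a window of Blvra held a match, to TGACNNNGC, where 10.2% of all 32851 windows hold that form and 6.75% hold TGANTCA. A missing match says only that these letters are not in the window.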

How the data were processed

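Gene expression was taken from 7 RNA-seq libraries made from C2C12 myotubes (3 control, 4 EPS). Per the labels and the study's methods, poly(A) RNA was made into directional libraries, sequenced as paired-end reads and mapped to GRCm38 with STAR 2.5.4b (version from the submitters' processing notes). The authors deposited CPM per gene symbol; the read counter, its annotation and its use of strand are not given in the sources used here. In each library 100% of the values came out as whole reads, within 0.1 reads, and these reads were recovered.

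The 10 members and all gene lists were chosen with earlier results of these data known. Log2(CPM + 1) of the 19144 genes above 0 in at least 1 library was tested with limma 3.58.1 in R 4.3.3 (empirical Bayes with trend, no covariate), although the study used edgeR, because the deposited unit is CPM. Single genes were also tested by an exact permutation test of mean CPM over 35 splits. Tests on recovered reads (edgeR 4.0.16, DESeq2 1.42.0), a pseudocount of 0.1 or 0.5, a floor of 1 CPM on the mean, 2 scalings, a P threshold of 0.001, the replicate number as a block and leaving out each library were alternatives. A correction for transcript length was added after the data had been seen. In simulated reads of the EPS comparison (18603 genes, 200 changed by 2 on the log2 scale) limma found 191 of the changed genes with 8 false calls. The count tools found 197 (edgeR quasi-likelihood), 197 (edgeR exact) and 195 (DESeq2), with 90, 70 and 52 false calls. The simulated reads held no length trend, and their change was larger than those of Blvrb, Fth1, Ftl1 and Slc40a1. How often changes of that size are found or falsely called in the real libraries cannot be read from them.

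All 10 members were named; in each list the genes named are those called and the 3 with the smallest P, and for each called member the 3 most like it in pattern. Myog, Acta1, Gja5, Camk2n1, Lyrm4, Cdk1, Bub1 and Id3 were named outside this rule, after their values had been seen. Coordinates and transcript lengths are those of GENCODE M21, matched for 92.3% of listed genes. Values are uncertain where a gene has near-identical copies or overlaps another gene. Libraries of a group differed by far more than sampling noise.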

Additional observations from a re-analysis of the deposited data

How the results depend on the processing

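Of the 10 members, 5 were called in limma. The count was 1 at P under 0.001, 3 with the replicate number as a block (replicate block) and 2 to 5 without 1 library (2 without control replicate 3, 3 without EPS replicate 2 or control replicate 1). Under all other settings it was 4 or 5. The number of genes called (269, of which 185 higher) was 585 (317 higher) in DESeq2, 691 (370) in the edgeR exact test with TMM, 629 (329) and 631 (407) in edgeR's quasi-likelihood test with and without TMM, 601 (445) with a pseudocount of 0.1, 161 (99) with the replicate block and 106 (71) at P under 0.001, and 209 to 325 (140 to 232) without 1 library. Members with an adjusted p under 0.05 numbered 1 in limma, 5 in DESeq2, the edgeR exact test and edgeR's quasi-likelihood test without TMM, 3 with TMM, 2 with a minimum mean of 1 CPM, 0 after quantile normalization or with the replicate block, and 0 to 1 without 1 library.

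Fold changes (log2) that lost the call were Fth1 at 1.60 with the replicate block, Ftl1 at 0.98 with the length correction, and Slc40a1 at 0.98 after median-of-ratios scaling, 0.97 after quantile normalization and 0.86 with the replicate block. Without 1 library Blvrb ranged from 1.32 to 2.03, Ftl1 from 1.04 to 1.48, Slc40a1 from 0.86 to 1.28 and Bach1 from -0.066 to 0.33. Hmox2 turned to -0.034 in DESeq2, -0.022 and -0.021 in the edgeR exact and quasi-likelihood tests with TMM, -0.032 after median-of-ratios scaling, -0.039 after quantile normalization and -0.036 with the length correction. Bach1 turned to -0.015 in DESeq2, -0.0019 in both edgeR tests with TMM and -0.0053 after median-of-ratios scaling. The cause of these changes was not tested. The ratios of Hmox1 to Hmox2 and of Fth1 to Ftl1 differed by 2.65 and 0.50 on the log2 scale between the groups, and by 2.45 to 2.97 and 0.080 to 0.75 without 1 library.

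The replicate numbers are not stated to mark a shared culture, and same-numbered libraries did not deviate together in every pair (r = 0.25, -0.45 and 0.068 across 12256 genes, which are not independent replicates, for numbers 1, 3 and 4). The block therefore shares only a number, and EPS replicate 2, whose number no control carries, adds nothing to it. Of the 5 members called, Hmox1 and Fth1 kept the call without any 1 library, and Blvrb, Ftl1 and Slc40a1 did not. Read depth did not limit the members. No EPS library stood apart from its group in any of 15 checks of member levels and ratios.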
